A study of Mus musculus with 36 samples.

Results

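Skeletal muscle sarcomere and contraction genes were examined across 9 bulk RNA-seq libraries of mouse knee tissue. The group is a list of 42 gene symbols covering myosin heavy and light chains, thin filament and troponin proteins, Z-disc and M-band scaffold proteins, calcium handling proteins and energy supply. A listed gene was kept if it had at least 10 counts summed over the 9 libraries, and all 42 of 42 were kept, out of 55291 genes in the count table. In 3 groups of 3 biological replicates, mice had an injury of the anterior cruciate ligament (ACL) and a protein kinase C (PKC) inhibitor, the same injury and 0.9% saline as vehicle, or a sham procedure with no ACL injury. All tissue was taken at 24 h. They are called inhibitor, vehicle and sham knees here. The labels used here name neither the inhibitor nor the strain, age or sex of the mice. The labels of these libraries give knee joint tissue as the source, while those of the other libraries in the series describe the same set as cartilage.

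Skeletal muscle contracts when calcium released from the sarcoplasmic reticulum binds troponin on the actin thin filament and lets myosin heads pull on it. Fast and slow fibres carry different versions of most of these proteins, so that the ratio of a slow to a fast version reads the fibre type behind the RNA. Several muscles attach around the knee joint.

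Libraries held 124 M to 202 M counts, of which 91.2% to 98.2% fell on genes for 7SL, a small RNA of the protein secretion machinery, leaving 3.28 M to 11.9 M counts outside them. Inhibitor libraries 1 and 2 stood apart with 11.9 M and 11.4 M such counts, against 3.28 M to 5.25 M in the other 7. All values below are normalised counts, scaled for depth and composition with TMM factors (trimmed means of log ratios between libraries). Per kilobase of exon, skeletal actin Acta1 averaged 2177 normalised counts over the 9 libraries, against 577 for the cartilage collagen Col2a1, 46.1 for the cartilage proteoglycan Acan and 8630.3 for the bone and connective tissue collagen Col1a1. The tissue therefore held muscle RNA beside bone and cartilage RNA in every library. Of 8 heart muscle markers, Nppa and Myl7 had 0 counts in all 9 libraries, and the other 6 had counts. Their raw totals over the 9 libraries were 167 for Myl4, 72 for Myh6, 51 for Tnni3, 27 for Ryr2, 23 for Tnnt2 and 22 for Mybpc3. Multi-mapping reads were counted for every gene they touch, so these totals can include reads shared with related genes. Of the 42 members, 35 had at least 10 counts in every library, and 41 passed the low-count filter and were tested. The exception was Sln, the sarcolipin inhibitor of the calcium pump, whose 10 counts over all libraries sat exactly at the minimum for the list.

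Proximal promoters are shown for 4 members, to set genes with different patterns over the libraries side by side. Skeletal actin, the most abundant fast myosin heavy chain and muscle creatine kinase were highest in inhibitor library 1, and the slow light chain Myl3 was highest in sham library 2. Sequences are the 250 bases before the RefSeq transcription start on GRCm38.p6, read 5′ to 3′ on the strand of the gene. Capitals mark E-boxes (CANNTG), which MyoD-family factors bind, the MEF2 site, and the CArG box bound by serum response factor. The Acta1 window is chr8:123894776-123895025 on the minus strand, Myh4 is chr11:67237562-67237811 on the plus strand, Ckm is chr7:19410844-19411093 on the plus strand, and Myl3 is chr9:110763428-110763677 on the plus strand.
Acta1: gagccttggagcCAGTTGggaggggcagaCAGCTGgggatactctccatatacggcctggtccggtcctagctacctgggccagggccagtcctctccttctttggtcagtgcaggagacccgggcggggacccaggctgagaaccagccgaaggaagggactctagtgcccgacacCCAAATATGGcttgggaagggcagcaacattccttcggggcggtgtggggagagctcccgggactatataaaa
Myh4: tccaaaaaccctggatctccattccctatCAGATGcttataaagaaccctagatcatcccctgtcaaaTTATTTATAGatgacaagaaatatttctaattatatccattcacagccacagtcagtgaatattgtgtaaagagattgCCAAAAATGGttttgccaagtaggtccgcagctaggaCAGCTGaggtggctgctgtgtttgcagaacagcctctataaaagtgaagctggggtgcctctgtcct
Ckm: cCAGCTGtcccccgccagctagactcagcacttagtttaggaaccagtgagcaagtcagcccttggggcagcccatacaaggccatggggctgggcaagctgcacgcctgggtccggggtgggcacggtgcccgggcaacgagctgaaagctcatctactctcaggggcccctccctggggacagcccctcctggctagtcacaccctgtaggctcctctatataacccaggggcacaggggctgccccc
Myl3: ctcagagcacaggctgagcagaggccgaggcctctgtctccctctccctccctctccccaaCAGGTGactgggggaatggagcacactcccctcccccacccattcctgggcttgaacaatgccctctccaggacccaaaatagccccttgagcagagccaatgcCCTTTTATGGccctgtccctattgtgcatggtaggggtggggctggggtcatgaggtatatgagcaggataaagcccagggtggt
The Acta1 window held 2 E-boxes and 1 CArG box 73 to 64 bases before the start. Myh4 held 2 E-boxes, 1 MEF2 site and 1 CArG box, Ckm held 1 E-box, and Myl3 held 1 E-box and 1 CArG box. RefSeq windows were present for 30 of the 42 members, 37 windows in all. An E-box of the form CAGCTG, which is one form of CANNTG, was present in 45.9% of these windows and in 13.0% of all 32851 promoter windows. CANNTG in any form was present in 83.8% of the member windows and 66.2% of all, the MEF2 site in 10.8% and 2.92%, and the CArG box in 16.2% and 1.47%, with both strands searched. These shares rest on few windows, 4 of 37 for the MEF2 site and 6 of 37 for the CArG box. The 6 came from 5 genes, because overlapping windows of Ldb3 hold the same CArG box. Windows of one gene are therefore not separate observations. A match of letters is a description of the window and shows no binding.

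The summed normalised count of the 42 members was 141687, 8918 and 18839 in inhibitor knees 1 to 3, 27453, 17747 and 23100 in vehicle knees, and 28925, 33959 and 68568 in sham knees. Inhibitor library 1 was above, and inhibitor library 2 below, every other library. Vehicle libraries were all below sham libraries, and the inhibitor group spanned both. As a share of protein-coding counts, a scale that does not depend on TMM, members made up 7.46%, 0.507% and 1.04% in inhibitor knees, 1.48%, 0.968% and 1.24% in vehicle knees and 0.904%, 1.87% and 3.33% in sham knees. On that scale vehicle and sham libraries overlapped, because sham library 1 was below all 3 vehicle libraries. In bulk tissue, fewer muscle fibres and less of each RNA per fibre cannot be told apart.

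**Figure D1:**
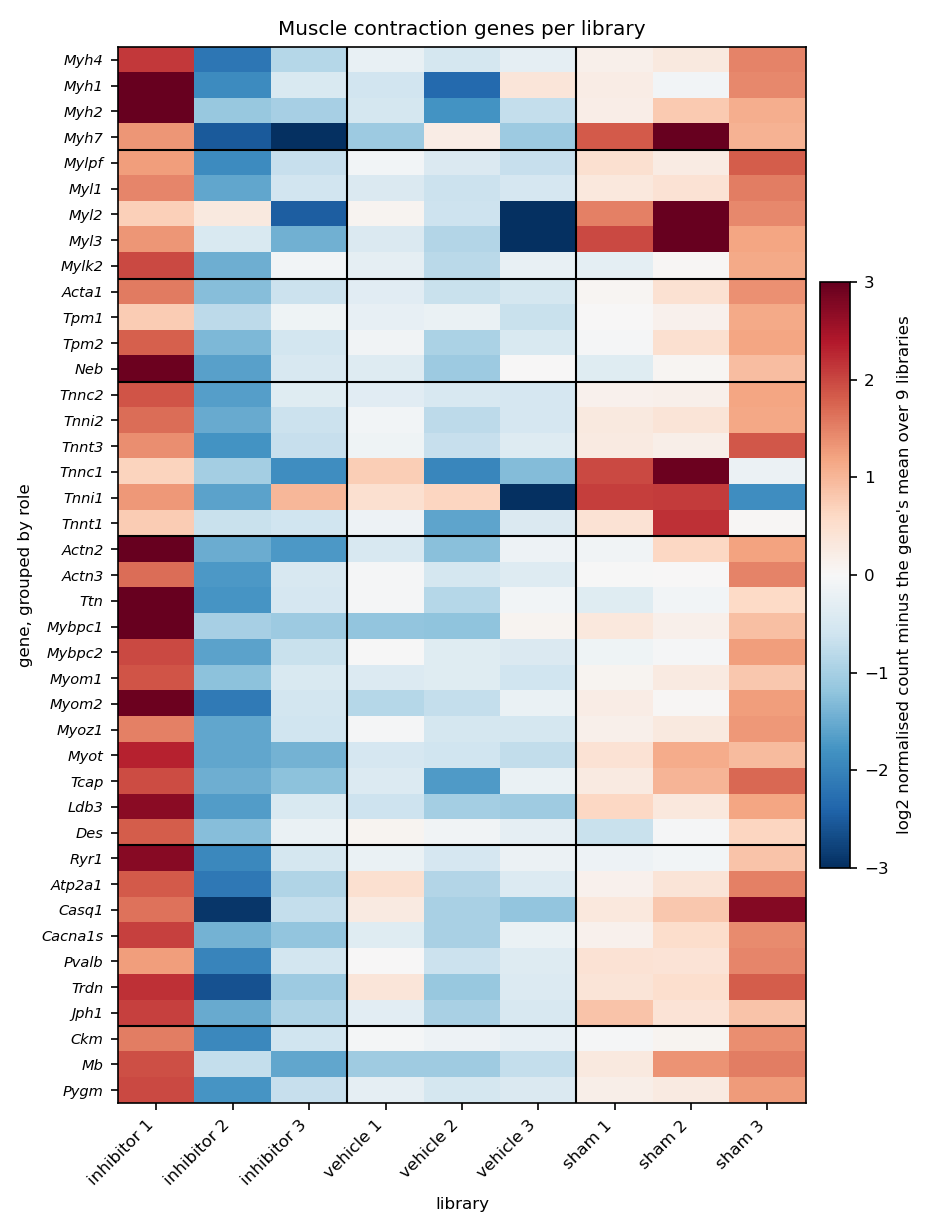
Level of the 41 tested members (rows, grouped by role and divided by black lines) in each of the 9 libraries (columns), as the log2 normalised count minus the mean of that gene over the libraries, with colours saturating at 3. Inhibitor library 1 was the highest of the 9 for 29 of the 42 members and inhibitor library 2 the lowest for 30. The share of all genes highest or lowest in these libraries was not counted.

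Vehicle knees, with ACL injury and saline but no inhibitor, were first compared with sham knees at 24 h. All 41 tested members had a negative log2 fold change, where 51.9% of all 13823 genes tested did, and their median was -1.18 against -0.02 over all genes. No member passed an adjusted p of 0.05 in edgeR's quasi-likelihood test (0.0217% of all genes passed and were lower, and 0.282% were higher), and 4 passed an unadjusted p of 0.05, all lower (3.81% of all genes). The 4 were Myl2, Myl3, Tnnc1 and Tnnt1, all slow fibre genes. In 32 of 41 members every vehicle library was below every sham library, where 8.76% of all genes showed this. The 9 that overlapped were Myh1, Mylk2, Neb, Tnnc1, Tnni1, Ttn, Mybpc2, Des and Atp2a1. The members share the sample and its muscle content, so these counts are not 41 separate observations. Most genes on several lists of other cell types also had lower levels in vehicle than in sham knees. Of the tested genes on each list, the log2 fold change was negative for 9 of 9 adipocyte, 6 of 6 smooth muscle, 7 of 7 erythroid, 7 of 8 fibroblast and 9 of 10 neutrophil genes, with medians of -0.90, -0.67, -0.25, -0.79 and -0.87 in that order. It was negative for 10 of 12 cartilage, 5 of 8 endothelial and 3 of 8 macrophage genes, with medians of -0.62, -0.07 and 0.17. The groups did not overlap for 5 adipocyte, 2 smooth muscle, 0 erythroid, 4 fibroblast and 6 neutrophil genes, and 1 of these genes passed the test, the neutrophil granule gene Ltf, named after its values were seen. The summed adipocyte level was 1078 to 1520 normalised counts in vehicle knees and 1682 to 2765 in sham knees, and the summed neutrophil level was 8270 to 10701 in vehicle knees and 15596 to 20954 in sham knees. Their part in the members' lower values was not tested.

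The calls depended on which libraries set the spread. With the 6 vehicle and sham libraries fitted alone, 15 of 41 members fell (0.958% of all genes), among them Myh2, Myl1, Myl2, Myl3, Acta1, Tnnc2, Tnni2 and the oxygen store Mb. Leaving out inhibitor library 1, which is in neither group but sets the shared spread, 9 fell (0.594% of all genes), among them Myh2, Myh7, Myl3 and Acta1. DESeq2 called 2 lower, Myl2 and Myl3 (0.218% of all genes), and edgeR without a low-count filter called 5 (0.364%), which were Myl2, Myl3, Tpm1, Tnnc1 and Tnnt1. Without sham library 3, the median was -0.75 in place of -1.18.

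Of the 4 myosin heavy chains, the motor proteins themselves, none passed the test, and 3 had vehicle libraries all below sham. Myh4, the fast type IIb motor at chromosome 11:67238029-67260446 on the plus strand of mm10, had the highest level per kilobase. It had 10104, 513 and 1286 normalised counts in inhibitor knees, 1977, 1596 and 1919 in vehicle knees, and 2571, 2825 and 6463 in sham knees. Vehicle libraries lay together below all sham libraries, and the inhibitor libraries lay on both sides of them. Vehicle against sham stood at -1.11 ± 1.05 in log2 terms (SE, adjusted p = 0.858, n = 3 each, edgeR quasi-likelihood test). Myh7, the slow motor at chromosome 14:54970684-54994626 on the minus strand, had 45.8, 2.73 and 1.30 normalised counts in inhibitor knees, 8.31, 21.4 and 8.18 in vehicle knees, and 66.3, 233 and 37.7 in sham knees. All 3 vehicle libraries were below all 3 sham libraries, with sham library 2 far above the rest. Vehicle against sham gave a log2 value of -3.11 ± 1.31 (SE, adjusted p = 0.604, edgeR quasi-likelihood test).

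The share of the 4 heavy chains per kilobase placed every library in fast muscle. Myh4 made up 60.0%, 68.5% and 73.2% in inhibitor knees, 80.0%, 90.0% and 71.1% in vehicle knees, and 74.5%, 73.6% and 77.7% in sham knees. Myh1, the type IIx motor, made up 28.8%, 17.9% and 20.6% in inhibitor knees, 13.6%, 5.59% and 23.7% in vehicle knees, and 16.8%, 12.4% and 16.3% in sham knees. Myh7 was below 1% in all 6 injured libraries, at 0.190%, 0.254% and 0.0516% in inhibitor knees and 0.235%, 0.842% and 0.212% in vehicle knees, against 1.34%, 4.25% and 0.317% in sham knees. Sham library 3 lay within the range of the vehicle libraries. The genes Myh2, Myh1 and Myh4 lie side by side on chromosome 11 from 67171027 to 67260446, resemble each other, and were counted with multi-mapping reads at every location, so their split is uncertain.

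Among the 5 myosin light chain genes, 4 had all vehicle libraries below sham. Mylpf, the fast regulatory light chain at chromosome 7:127208890-127214298 on the plus strand, had the highest level per kilobase of them. It had 1364, 155 and 354 normalised counts in inhibitor knees, 540.0, 428 and 353 in vehicle knees, and 796, 684 and 2019.7 in sham knees. Vehicle and sham did not overlap, and the log2 fold change stood at -1.40 ± 0.84 (SE, adjusted p = 0.739, edgeR quasi-likelihood test). Myl1, the fast essential light chain, had 1339, 164 and 326 in inhibitor knees, 361, 311 and 342 in vehicle knees, and 612, 661 and 1418 in sham knees, again without overlap between vehicle and sham.

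Their slow counterparts were far scarcer and showed the largest differences. Myl3, the slow essential light chain at chromosome 9:110741861-110769798 on the plus strand, had 29.3, 8.18 and 3.89 normalised counts in inhibitor knees, 8.31, 5.94 and 0 in vehicle knees, and 46.5, 113 and 26.4 in sham knees. No vehicle library reached a sham library. It averaged 4.75 ± 4.28 in vehicle knees and 61.9 ± 45.2 in sham knees (SD, n = 3 each), a log2 fold change of -3.72 ± 0.95 (SE) that was the largest of all members and still missed the threshold, at adjusted p = 0.196 (edgeR quasi-likelihood test). Myl2, the slow regulatory light chain, had 15.8, 11.7 and 1.30 in inhibitor knees, 9.97, 5.94 and 0 in vehicle knees, and 27.9, 102 and 26.4 in sham knees, with every injured library below every sham library. In log2 terms vehicle stood at -3.32 ± 0.94 against sham (SE, adjusted p = 0.254, edgeR quasi-likelihood test). These are genes of few counts: vehicle library 3 had 0 counts of Myl2 and of Myl3.

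**Figure D2:**
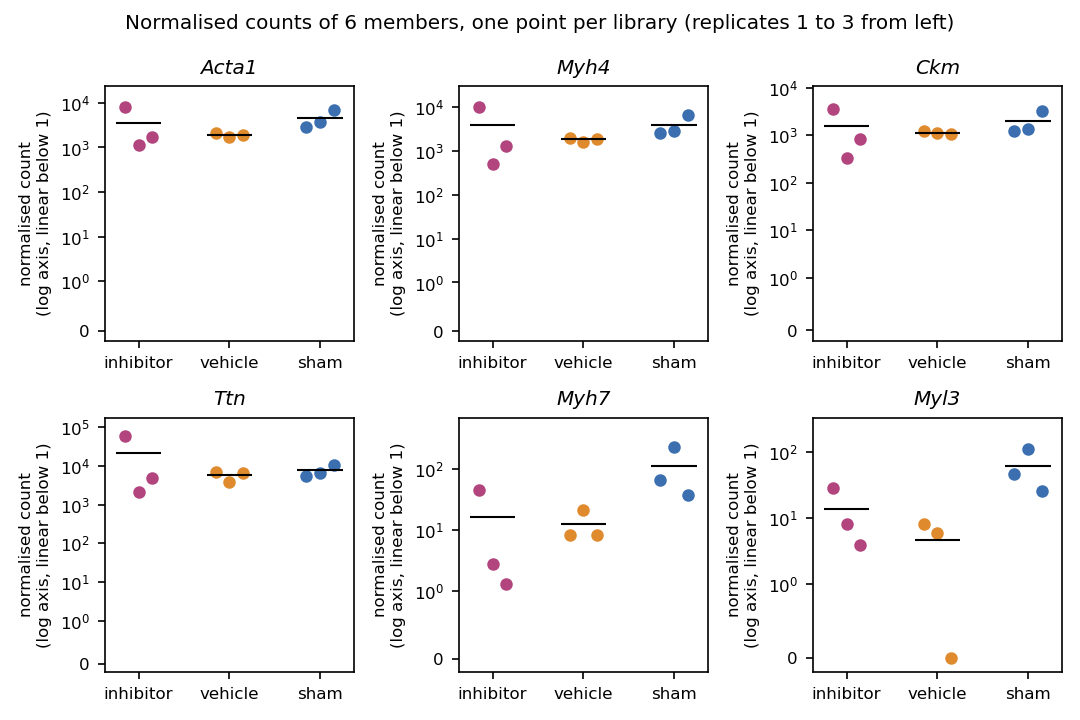
Normalised counts (log axis, linear below 1) of the fast or shared members Acta1, Myh4, Ckm and Ttn and the slow members Myh7 and Myl3, with each point a library and the black line the group mean. Acta1 ran from 1712 to 2140.1 in vehicle knees and from 2821 to 7019 in sham knees, while inhibitor library 1 was at 7942 and inhibitor library 2 at 1115.

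In the thin filament, 3 of 4 members had vehicle libraries below sham. Acta1, skeletal actin at chromosome 8:123891769-123894751 on the minus strand, had 7942, 1115 and 1737 normalised counts in inhibitor knees, 2140.1, 1712 and 1885 in vehicle knees, and 2821, 3727 and 7019 in sham knees. Vehicle libraries lay within a narrow band under all sham libraries. Acta1 averaged 1912 ± 216 in vehicle knees and 4522 ± 2209 in sham knees (SD, n = 3 each), which is -1.24 ± 0.74 in log2 terms (SE, adjusted p = 0.736, edgeR quasi-likelihood test). Neb, nebulin, the long ruler along the actin filament, was the thin filament member that overlapped, with 618, 374 and 816 in vehicle knees and 623, 842 and 1520.0 in sham knees. Neb was chosen after its values were seen.

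Troponin, the calcium switch, has a calcium-binding C, an inhibitory I and a tropomyosin-binding T subunit, each with a fast and a slow gene. The fast Tnnc2, at chromosome 2:164777161-164779967 on the minus strand, had the highest level per kilobase, with 2899, 249 and 609 normalised counts in inhibitor knees, 619.8, 566 and 555 in vehicle knees, and 857, 873 and 1786 in sham knees. The slow Tnnc1 had 17.3, 5.06 and 2.60 in inhibitor knees, 18.3, 2.38 and 4.09 in vehicle knees, and 44.2, 85.2 and 9.43 in sham knees. Tnnc2 separated vehicle from sham, while in Tnnc1 vehicle library 1 was above sham library 3. Log2 fold changes of vehicle against sham were -1.01 ± 0.86 for Tnnc2 (adjusted p = 0.833) and -2.58 ± 0.93 for Tnnc1 (adjusted p = 0.408, both SE and edgeR quasi-likelihood test).

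The inhibitory subunits followed, with fast Tnni2 at 1239.8, 136 and 251 normalised counts in inhibitor knees, 369, 226 and 276 in vehicle knees, and 480.2, 509 and 875 in sham knees. Slow Tnni1 had 21.0, 2.34 and 16.9 in inhibitor knees, 11.6, 13.1 and 0 in vehicle knees, and 36.0, 36.7 and 1.89 in sham knees. Tnni2 separated vehicle from sham, and Tnni1 did not, since sham library 3 was nearly without it. For the T subunit, fast Tnnt3 had 2240.4, 243 and 524 in inhibitor knees, 771, 524 and 644 in vehicle knees, and 1023, 966 and 3100.3 in sham knees. Slow Tnnt1 had 44.3, 16.0 and 16.9 in inhibitor knees, 23.3, 8.32 and 19.1 in vehicle knees, and 34.9, 121 and 26.4 in sham knees. Both T genes had all vehicle libraries below sham, at log2 fold changes of -1.39 ± 0.89 for Tnnt3 (adjusted p = 0.755) and -1.88 ± 0.65 for Tnnt1 (adjusted p = 0.374, both SE and edgeR quasi-likelihood test).

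Of the 12 tested Z-disc, M-band and scaffold genes, 9 had vehicle libraries all below sham, and their median log2 fold change was -1.08. Actn3, the fast-fibre actinin of the Z-disc at chromosome 19:4861216-4877909 on the minus strand, had the highest level per kilobase. It had 1427, 135 and 321 normalised counts in inhibitor knees, 439, 311 and 342 in vehicle knees, and 445, 452 and 1254 in sham knees, so that the gap between the highest vehicle and lowest sham library was small. Mybpc2, the fast myosin-binding protein C, had 1744, 144 and 275 in inhibitor knees, 434, 342 and 326 in vehicle knees, and 400.0, 430.0 and 1045 in sham knees, with overlap. Mybpc1, the slow form, had 1006, 60.8 and 57.1 in inhibitor knees, 53.2, 52.3 and 128 in vehicle knees, and 151, 135 and 228 in sham knees, without overlap between vehicle and sham.

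Calcium handling and energy genes showed the same order. Atp2a1, the fast-fibre calcium pump SERCA1 at chromosome 7:126445858-126463108 on the minus strand, had 13151, 823 and 1947 normalised counts in inhibitor knees, 5156, 1986 and 2743 in vehicle knees, and 4035, 4779 and 10514 in sham knees. Vehicle library 1 was above sham libraries 1 and 2, so these groups overlapped, and the log2 fold change stood at -0.97 ± 1.03 (SE, adjusted p = 0.875, edgeR quasi-likelihood test). The other 6 tested calcium genes, which include the release channel Ryr1, the voltage sensor Cacna1s, the calcium store protein Casq1 and the calcium buffer Pvalb, all had vehicle libraries below sham. Ckm, muscle creatine kinase at chromosome 7:19404776-19422841 on the plus strand, had 3669, 330.3 and 839.8 in inhibitor knees, 1216, 1151 and 1067 in vehicle knees, and 1245, 1352 and 3349 in sham knees. Its vehicle libraries were all below its sham libraries by a narrow margin, at -0.79 ± 0.87 (SE, adjusted p = 0.879, edgeR quasi-likelihood test).

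**Figure D3:**
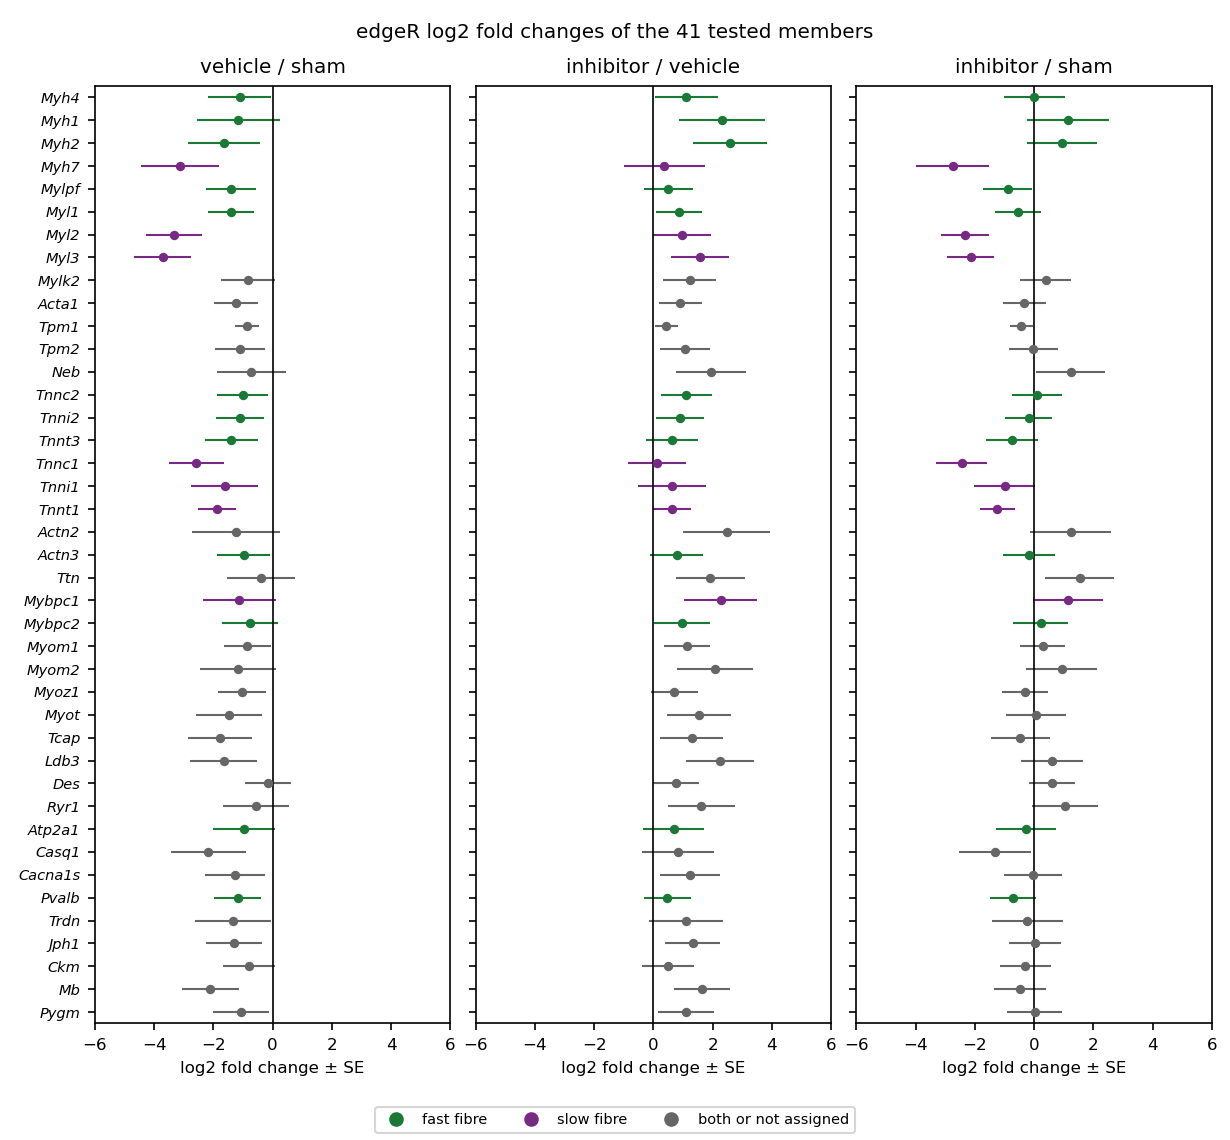
Log2 fold changes (x axis, bars are the standard error) of the 41 tested members (rows) from edgeR, for vehicle over sham (left), inhibitor over vehicle (middle) and inhibitor over sham (right), with fast, slow and other members coloured. All 41 members were negative in the first comparison and all 41 positive in the second.

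The median log2 fold change of vehicle against sham was -1.14 over 12 fast genes and -2.58 over 7 slow genes. To compare fibre types within libraries, the log2 ratio of slow to fast counts was compared for 7 isoform pairs, which does not depend on how libraries were scaled. All 7 ratios were lower on average in vehicle than in sham knees. In none did the groups separate, and the lowest exact permutation p was 0.2 (two-sided, adjusted p = 0.7 over 21 tests). With 3 libraries against 3, the smallest p this test allows is 0.1. The Myh7 to Myh4 log2 ratio averaged -7.23 ± 0.91 in vehicle knees and -5.41 ± 1.90 in sham knees (SD, n = 3 each), a difference of -1.82 (exact permutation p = 0.2). It was -0.91 without sham library 2.

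Shares of the slow gene in each pair, per kilobase and with 95% Wilson intervals that cover counting error only, show where the spread lay. For Myl3 in Myl3 and Myl1, the shares were 2.17%, 4.81% and 1.20% in inhibitor knees, 2.28%, 1.90% and 0% in vehicle knees, and 7.16%, 14.8% and 1.85% in sham knees. The 0 in vehicle library 3 allows a share of up to 1.20%. Sham library 2 had the highest slow share of the 9 libraries in the pairs of Myh7, Myl2, Myl3, Tnnc1 and Tnnt1, and sham library 3 was the lowest sham library in all 7 pairs. The interval of sham library 3 for Myl3, 1.11% to 3.09%, took in the vehicle shares of libraries 1 and 2. The Mybpc1 share was the exception in level, running from 14.2% to 31.5% in inhibitor knees, 8.91% to 23.9% in vehicle knees and 14.8% to 23.2% in sham knees.

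**Figure D4:**
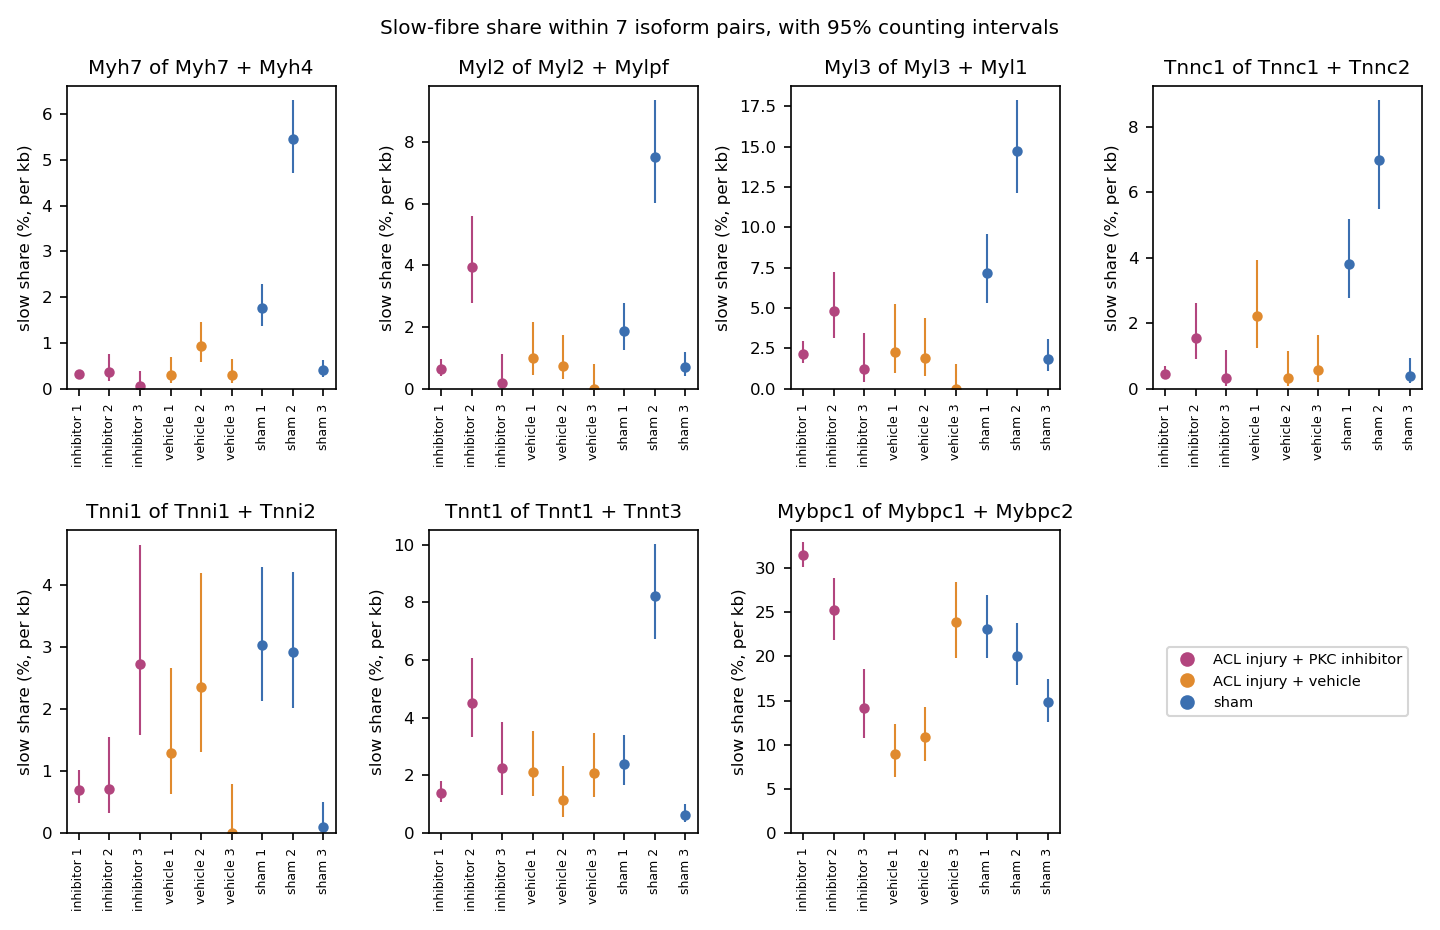
Share of the slow gene in each of 7 slow and fast isoform pairs (y axis, percent, per kilobase of exon) for each library, with bars the 95% Wilson counting intervals. Myh7 shares ran from 0.293% to 0.927% in vehicle knees and from 0.406% to 5.45% in sham knees.

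Next, inhibitor was compared with vehicle, both after injury. All 41 tested members had a positive log2 fold change, where 53.8% of all genes did, and the median was 1.09 against 0.04 over all genes. No member passed the adjusted threshold (0.0289% of all genes were called higher and 0.702% lower) and none reached an unadjusted p of 0.05 in edgeR, where 13.4% of all genes did. DESeq2 called 0 members as well. In no member did the 3 inhibitor libraries separate from the 3 vehicle libraries, either above (8.44% of all genes) or below (10.4%). The largest log2 fold change was that of Myh2, the type IIa motor, at 2.58 ± 1.25 (SE, adjusted p = 0.445, edgeR quasi-likelihood test). It had 2217, 119 and 129.8 normalised counts in inhibitor knees, 181, 74.9 and 159.6 in vehicle knees, and 299, 446 and 551 in sham knees. Inhibitor libraries 2 and 3 lay within the vehicle range, and inhibitor library 1 was above every other library.

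This direction rested on inhibitor library 1. It was above every vehicle library in 40 of 41 members, while inhibitor library 2 was below every vehicle library in 31 of 41 and library 3 in 12 of 41. The share of all genes doing so was not counted. Without inhibitor library 1, 39 of 41 members were negative (49.9% of all genes), the median was -0.69, and edgeR called 0 members (0.629% of all genes were called lower). Acta1 was then at -0.42, Myh4 at -1.03 and Atp2a1 at -1.25. Without inhibitor library 2 the median was 1.57.

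Inhibitor was also compared with sham, which shares its sham libraries with the comparison of vehicle and its inhibitor libraries with the one just described. Of 41 members, 18 were positive (52.4% of all genes) and 23 negative, with a median log2 fold change of -0.19 (0.03 over all genes). No member passed the adjusted threshold, where 1.27% of all genes were higher and 2.68% lower. In edgeR 3 reached an unadjusted p of 0.05, all lower (10.1% of all genes). DESeq2 called 2 lower, Myl2 and Tnnc1 (4.4% of all genes), and edgeR without a low-count filter called 3, these and Myl3 (2.37%). Myl2 was the only member whose groups separated (11.6% of all genes separated below), and its log2 fold change stood at -2.35 ± 0.81 (SE, adjusted p = 0.142, edgeR quasi-likelihood test), and Tnnc1 was at -2.45 ± 0.86 (adjusted p = 0.153). The Myh7 fold change of -2.75 ± 1.23 was the largest (adjusted p = 0.308), and the Myh7 to Myh4 ratio was the only pair ratio in which all 3 inhibitor libraries were below all 3 sham libraries, with a difference of -2.78 (exact permutation p = 0.1, the smallest possible, and 0.7 adjusted over 21 tests).

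Library 1 decided this result as well. Without it, all 41 members were negative (52.1% of all genes), the median was -1.83, and 22 of 41 members fell (3.56% of all genes were called lower), among them Myh4, Myh2, Myh7, Myl1, Myl3, Acta1, Tnni2 and Tnnc1. The median was 0.34 without inhibitor library 2, 0.18 without inhibitor library 3, 0.30 without sham library 3 and -0.36 without sham library 1. Acta1 was at -0.33 with all libraries, 0.09 without inhibitor library 2 and 0.13 without sham library 3.

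The excess in inhibitor library 1 was not even over the members. Against the median of the other 8 libraries it ranged from 1.45 times for Myl2 to 13.0 times for Myh2 and the Z-disc actinin Actn2. It was 2.82 times for Mylpf and 3.95 times for Acta1, against 9.74 times for the giant spring Ttn and 9.94 times for Neb, genes with the longest exon totals. Ttn had 58870.0 normalised counts there and 2049 and 4923 in the other inhibitor knees, against 6842, 3839 and 6644 in vehicle knees and 5438, 6659 and 10649 in sham knees. In inhibitor library 1, the median log2 ratio to the other libraries was 2.92 for 13 members of 5000 bases or more and 1.81 for 12 members under 2000 bases, a difference of 1.10, where the other 8 libraries had differences of -0.25 to 0.36. Over other protein-coding genes the 2 medians in that library were 0.06 and -0.03. Length did not order the members throughout. Tpm1 (6485 bases) was at 1.90 times and Myh7 (8616 bases) at 3.08 times, while Mb (1492 bases) was at 6.36 times. Actn2, among the highest, had 3795 bases. The genes named here were chosen after their values were seen, and what sets the pattern was not tested.

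**Figure D5:**
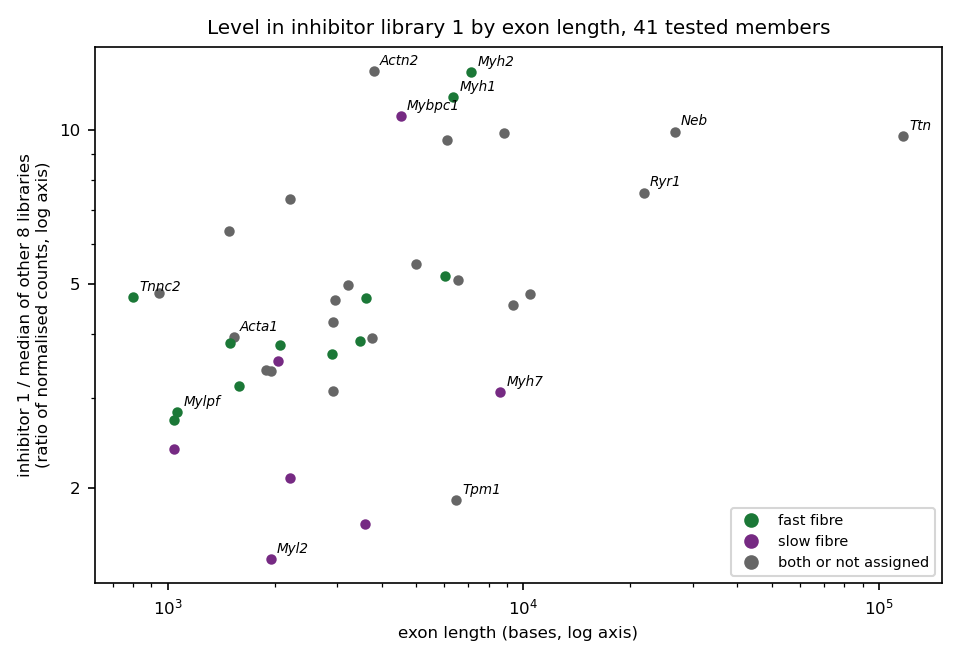
Normalised count in inhibitor library 1 over the median of the other 8 libraries (y axis, log scale) against exon length in bases (x axis, log scale), with each point a tested member. The ratio was 1.45 for Myl2 and 13.0 for Actn2 and Myh2, and short members such as Mylpf (2.82) lay under the long Ttn (9.74) and Neb (9.94). Other members went against this order, with the long Tpm1 at 1.90 and the short Mb at 6.36.

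Genes of vessels also had high levels in inhibitor library 1. Summed normalised counts of 8 endothelial genes, all counted in these libraries, were 3091, 557 and 515 in inhibitor knees, 748, 694 and 782 in vehicle knees and 624, 752 and 1090 in sham knees. Those of 8 smooth muscle genes were 2878, 560 and 456 in inhibitor knees, 442 to 592 in vehicle knees and 572 to 864 in sham knees. The 10 adipocyte genes had 3747, 985 and 1138 in inhibitor knees, 1078 to 1520 in vehicle knees and 1682 to 2765 in sham knees. Of the genes on these lists, 7 of 8 endothelial and 6 of 8 smooth muscle genes were highest in inhibitor library 1, against 4 of 10 adipocyte genes. Without Fabp4, a fatty acid binding protein that capillaries also make and that was chosen after its values were seen, the adipocyte sum in that library was 1868, below the 2069 of sham library 3. That sum was still above the 1455 and 1234 of sham libraries 1 and 2 and the 872, 794 and 889 of vehicle libraries 1 to 3. Inhibitor libraries 2 and 3 had 711 and 810. The 14 cartilage genes summed to 3798, 5426 and 8340 in inhibitor knees, 13822 to 18562 in vehicle knees and 10563 to 31034 in sham knees. All 3 inhibitor libraries lay below the other groups in that sum, and 9 of its 14 genes were lowest in inhibitor library 2. None of the genes on these 4 lists was at 0 over all libraries. Their part in the muscle values was not tested.

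A further 40 skeletal muscle genes outside the list were counted for comparison. Of 38 tested, 34 were negative in vehicle against sham (median -1.07, none called in edgeR), 37 were positive in inhibitor against vehicle, and 18 were positive in inhibitor against sham. Their summed normalised count was 23099, 1546 and 3078 in inhibitor knees, 4365, 2910 and 3361 in vehicle knees and 4559, 5113 and 9241 in sham knees. In vehicle against sham, 4 of the 38 were positive, and log2 fold changes ran from -3.41 to 2.11. Xirp1 had 367, 185 and 80.5 normalised counts in vehicle knees and 58.1, 49.8 and 35.8 in sham knees. Klhl40 had 129.6, 36.8 and 61.4 in vehicle knees and 17.4, 27.5 and 11.3 in sham knees. Both were chosen after their values were seen.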

How the data were processed

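Counts per gene were made by the authors with featureCounts 2.0.1 on read pairs, strand-specifically, over exons of GENCODE M25, with multi-mapping and overlapping reads counted in full for each gene they touch, per the file headers. Close paralogues can therefore share reads. HISAT2 and mm10 are named in the submitters' processing notes. RNA was depleted of ribosomal RNA, per the labels' protocols. Columns were matched to the 9 samples by name, and 27 columns of the other deposited tables, whose codes match no label, were not used. The 42 genes, the other gene lists and the tests were chosen with earlier results of these data known.

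On the deposited counts, edgeR 4.0.16 (R 4.3.3) was run with filterByExpr, TMM scaling and robust quasi-likelihood fits of all 9 libraries, two-sided, with Benjamini-Hochberg adjustment over 13823 genes and a threshold of 0.05. Normalised counts are counts per TMM-scaled library size, times the mean of those sizes. The SE is the log2 fold change over the square root of F. Slow-to-fast ratios added 0.5 counts to both genes and were compared by exact permutation tests, adjusted over 21 tests. Alternatives were DESeq2 1.42.0, other scalings, no filter (at least 1 count), the compared groups alone, a replicate block, each library left out, and, chosen after seeing the data, protein-coding genes alone. Per-library values were given for both genes of the 7 pairs, the member with most counts per kilobase in each role group, and the member with the largest fold change in each comparison. The fit was tested on simulated counts in which all genes had the same dispersion and no library stood apart. That test therefore does not cover the spread that inhibitor library 1 gave the members. No libraries were near duplicates. The labels call the samples biological replicates.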

Additional observations from a re-analysis of the deposited data

How the results depend on the processing

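Direction held in every comparison under DESeq2, the scaling choices, the missing filter, the smaller fits and protein-coding genes alone, for all members named with a log2 fold change. In vehicle against sham, calls numbered 0 with all libraries, 2 with DESeq2, 5 without a filter, 15 with the compared groups alone and 0 to 9 with a library left out. In inhibitor against sham, calls numbered 0, 2 with DESeq2, 3 without a filter and 0 to 22 with a library left out. Leaving out libraries moved the median of inhibitor against vehicle between -0.69 and 1.57 and that of inhibitor against sham between -1.83 and 0.34. In inhibitor against vehicle, the log2 fold change ranged from -0.14 to 3.07 for Myh2, -1.03 to 1.61 for Myh4, -0.81 to 0.94 for Mylpf, -0.42 to 1.31 for Acta1, -0.45 to 1.57 for Tnnc2, -0.70 to 1.24 for Actn3, -1.25 to 1.17 for Atp2a1 and -0.97 to 0.95 for Ckm, negative only without inhibitor library 1. Acta1 in inhibitor against sham ranged from -1.66 to 0.13. The cause of these moves was not tested. Deviations from group means had correlations of -0.22 to 0.07 between same-numbered libraries of different groups. Between differently numbered libraries they were -0.15 to 0.19. With 3 libraries per group, these values cannot settle whether equal numbers pair libraries. A replicate block gave 0 calls in each comparison. Its medians were -1.30, 0.62 and -0.68 for vehicle against sham, inhibitor against vehicle and inhibitor against sham. For inhibitor against sham, the log2 ratio of mean summed levels was 0.37 and the difference in mean log2 summed level was -0.50; the mean over members of log2 levels, another quantity in which each gene has equal weight, differed by -0.86. Without a filter the median of all genes was 0.11 in both inhibitor comparisons. Slow members had few counts, which limits their precision.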

Other observations

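Genes of the muscle wasting programme were counted beside the members. Of 10 tested, 8 were positive and 2 negative in vehicle against sham, with 0 called. Their median log2 fold change was 0.22 (-0.02 over all genes) and the lowest was -1.32. In inhibitor against sham, 7 were positive (52.4% of all genes) and 3 negative, with a median of 0.33 (0.03 over all genes). The 1 gene of the list called there was Ddit4, a stress-induced inhibitor of mTOR signalling, which was higher, where 1.27% of all genes were. It had 140.3, 109.9 and 129 normalised counts in inhibitor knees, 156, 67.8 and 76.4 in vehicle knees, and 34.9, 47.2 and 62.2 in sham knees, with every injured library above every sham library. Its log2 value for inhibitor against sham was 1.41 ± 0.33 (SE, adjusted p = 0.0288, edgeR quasi-likelihood test), and for vehicle against sham it was 1.06 ± 0.34 (adjusted p = 0.289). The call was lost when any sham library was left out, with adjusted p of 0.133, 0.0881 and 0.0539 without sham libraries 1, 2 and 3, against 0.0201 to 0.0435 without any other library. The gene is expressed in many cell types, so its source in this tissue is not given by these data. The ubiquitin ligase Trim63, which is restricted to striated muscle and was chosen after its values were seen, had 269, 68.9 and 54.5 in inhibitor knees, 181, 164 and 72.3 in vehicle knees, and 16.3, 38.0 and 37.7 in sham knees. All injured libraries were above all sham libraries, while the members' summed level was lower in vehicle knees than in sham knees, and the test was not passed in vehicle against sham (2.20 ± 0.74, adjusted p = 0.423). It was passed with DESeq2, with the vehicle and sham libraries fitted alone and without inhibitor library 1. Trim63 does not stand for the whole list. Mstn, another of its genes and also chosen after its values were seen, was lower on average in vehicle than in sham knees, with overlap. It had 31.5, 0.779 and 1.30 in inhibitor knees, 13.3, 3.57 and 2.73 in vehicle knees, and 12.8, 14.4 and 20.7 in sham knees.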
